A study of Mus musculus with 6 samples.

Results

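The CCN family and the genes read out by the transcription co-factor YAP were described here by 10 gene symbols: Ctgf, Cyr61, Nov, Wisp1 and Wisp2 of the CCN family, the co-factors Yap1 and Wwtr1, their DNA-binding partner Tead1, and the target genes Ankrd1 and Amotl2. Every probe whose listed symbol was a member was taken, whatever its values. This gave 15 of the 45281 probes on the array and 9 of its 31508 symbols, since no probe was listed as Wwtr1. Cortical bone tubes were shafts of tibia and femur of C57BL6 mice. Cutting, flushing and enzyme digestion were meant to clear them of muscle, growth plate, marrow and surface cells. The tubes were kept in culture in serum-containing medium and then left untreated (control) or given PTH 1-34 at 250 nM for 24 h. PTH 1-34 is the active fragment of parathyroid hormone. The labels give the age as 3 months, and name no transgene and no further agent for either group. Bones of several mice were pooled for each preparation, and there were 3 arrays in each group. The preparations are numbered replicates, and the labels do not say that each came from separate animals, so the p-values measure the spread between these samples.

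CCN proteins are secreted, cysteine-rich proteins of the extracellular matrix that bind integrins and growth factors and tune how cells adhere, spread and respond to TGF-β, BMP and Wnt ligands. YAP, encoded by Yap1, and its relative TAZ, encoded by Wwtr1, carry mechanical and cell-contact cues to the nucleus: the Hippo kinases phosphorylate them and hold them in the cytoplasm, and when unphosphorylated they join TEAD proteins on DNA and switch on genes such as Ctgf, Cyr61, Ankrd1 and Amotl2. Osteocytes, the cells embedded in bone matrix, are regarded as the mechanical sensors of bone, and PTH acts on them through a receptor that raises cAMP.

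Promoter sequence was available for 5 of the 10 members, as the 250 bases before each annotated start in RefSeq on GRCm38.p6 (Cyr61, Yap1, Wwtr1, Ankrd1 and Amotl2). Ctgf, Nov, Wisp1, Wisp2 and Tead1 had no entry. The windows were searched on both strands for the core of the TEAD binding motif, GGAATG or its reverse complement CATTCC, and for the cAMP response element TGACGTCA. Those of Ankrd1 and Cyr61 are printed in full. They belong to the member that differed most between the groups with the normalization reported here, and to the CCN member with the most probes. For Yap1, Amotl2 and Wwtr1 a stretch of 30 bases around the core is given. All read 5′ to 3′ on the strand of the gene, and capitals mark the TEAD core.
Ankrd1, chr19:36119845-36120094, minus strand: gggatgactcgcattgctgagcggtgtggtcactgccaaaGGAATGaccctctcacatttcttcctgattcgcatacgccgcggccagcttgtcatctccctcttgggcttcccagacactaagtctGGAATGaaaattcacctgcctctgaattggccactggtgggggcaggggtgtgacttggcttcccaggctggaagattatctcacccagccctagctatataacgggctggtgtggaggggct
Cyr61, chr3:145649986-145650235, minus strand: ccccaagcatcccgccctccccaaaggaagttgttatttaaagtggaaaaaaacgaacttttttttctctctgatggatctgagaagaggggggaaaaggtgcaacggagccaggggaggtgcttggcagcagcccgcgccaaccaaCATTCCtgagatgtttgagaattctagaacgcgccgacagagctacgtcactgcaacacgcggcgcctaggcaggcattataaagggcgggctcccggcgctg
Yap1, chr9:8004720-8004749, minus strand: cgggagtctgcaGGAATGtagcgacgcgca
Amotl2, chr9:102717727-102717756, plus strand: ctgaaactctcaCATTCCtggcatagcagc
Wwtr1, chr3:57576029-57576058, minus strand: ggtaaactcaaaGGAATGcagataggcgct

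All 5 members with a window held the TEAD core, against 14.4% of all 27025 genes with a window. Counted by window, 12.6% of all 32851 windows of the same length held it. The members include genes known to be switched on through TEAD (Cyr61, Ankrd1 and Amotl2). Their share with the core is therefore not independent of how the members were chosen. The core began 210 and 123 bases before the start of Ankrd1, 141 before that of Yap1, 103 before that of Cyr61 and 65 before that of Amotl2, and Wwtr1 had the same core in the windows of 2 nearby starts, at 136 and 170 bases. Ankrd1 alone held 2 copies, a feature of 1.02% of all windows. None of the members' windows held the full cAMP response element TGACGTCA, which 1.55% of all windows did. Shorter or mismatched forms of the element were not searched for. These matches describe the letters only and say nothing of whether a factor bound there.

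**Figure D1:**
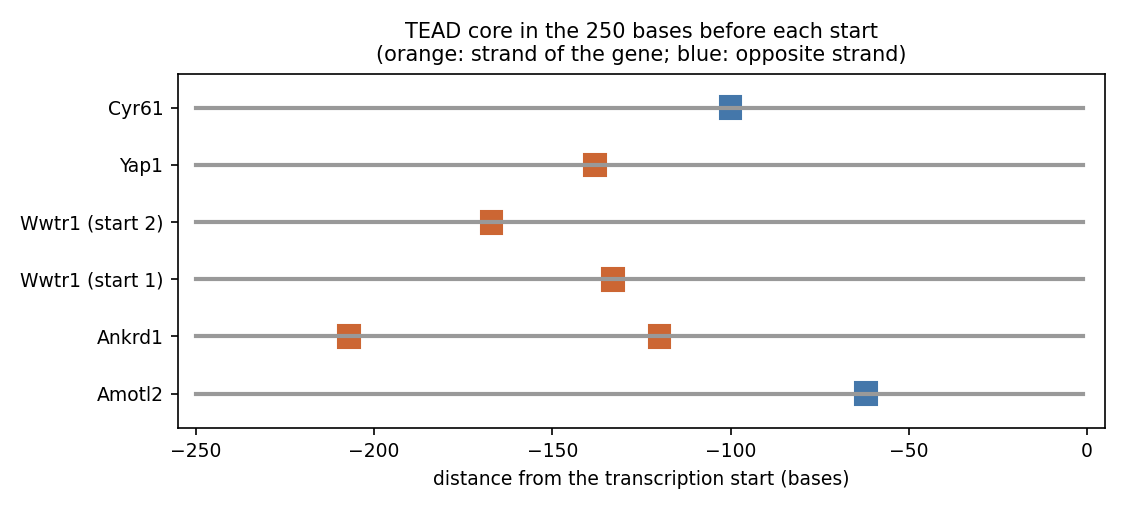
Position of each TEAD core (6-base box) in the 250 bases before each annotated start, with distance from the start in bases on the x axis and 1 line for each window, 2 of them for Wwtr1. Orange boxes lie on the strand of the gene and blue boxes on the other, and Ankrd1 is the member with 2 boxes, at 210 and 123 bases before the start.

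The deposited signals lie close to the array background, with a median signal of 111 to 129 over the 6 arrays, and 34.2% to 38.4% of probes per array stood above background (detection p under 0.05). After background correction and quantile normalization, values are given as normalized log2 signal, and a probe was tested by limma when 3 or more of the 6 arrays had it above background. A gene is represented by its brightest tested probe and is called at a Benjamini-Hochberg adjusted p under 0.05, over all 16214 probes tested, with a change of at least 1.5-fold. Of the 15 member probes 12 passed this filter, covering 7 members: Ctgf, Cyr61, Wisp1, Wisp2, Yap1, Ankrd1 and Amotl2. Of these 7 members 0 were called, against 1.73% of the 11979 genes tested (0.685% higher and 1.04% lower with PTH). At an unadjusted limma p under 0.05 there were 3 members, Wisp2, Yap1 and Ankrd1, each higher with PTH, while 14.9% of all genes tested passed that limit. Of the osteocyte list, Dmp1, Mepe, Phex and Pdpn were above background on all 6 arrays, Sost on 3 control arrays and 1 PTH array, and Fgf23 on 0. Osteocyte RNA was not alone: 8 of 8 neutrophil and myeloid, 9 of 10 endothelium, 5 of 8 osteoclast and 2 of 6 red cell markers were also above background on all 6 arrays. So were 6 of the 7 osteoblast and bone matrix markers on the array, 4 of 8 fibroblast and tendon, 2 of 10 cartilage and 1 of 13 muscle markers. In control the neutrophil gene S100a8 had a mean of 14.64 and the osteoclast gene Ctsk 13.05, beside 12.26 for Mepe and 8.70 for Dmp1.

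Among the CCN genes, the arrays of Wisp2 were all higher with PTH and those of the brighter Wisp1 probe all lower, neither past the adjusted threshold, and the groups overlapped for Ctgf and Cyr61, the CCN genes best known as YAP targets. Ctgf encodes connective tissue growth factor, a matrix protein induced by TGF-β and by YAP. Its brightest probe (ILMN_2909150) read 14.41, 14.53 and 14.37 in control replicates 1 to 3 and 14.53, 14.54 and 14.38 in PTH replicates 1 to 3, an order kept for every probe that follows. The groups overlapped, and the log2 fold change of PTH over control was 0.05 (SE 0.12, 95% interval -0.24 to 0.33, limma adjusted p 0.908). The other Ctgf probe (ILMN_1238215) read 12.75, 12.66 and 12.78 in control and 12.77, 12.84 and 12.60 with PTH, again with overlapping groups and a log2 fold change of 0.01 (SE 0.12, 95% interval -0.28 to 0.30, limma adjusted p 0.989). The intervals of both probes leave out a 1.5-fold change in either direction on this scale.

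Cyr61, a secreted adhesion protein and another early YAP target, had 3 probes, and none separated the groups. ILMN_2794645 read 8.65, 8.54 and 9.46 in control and 8.54, 8.53 and 9.16 with PTH, for a log2 fold change of -0.14 (SE 0.28, 95% interval -0.79 to 0.51, limma adjusted p 0.873). ILMN_1235571 read 8.54, 8.79 and 9.22 in control and 8.33, 8.23 and 8.71 with PTH, for a log2 fold change of -0.43 (SE 0.21, 95% interval -0.91 to 0.06, limma adjusted p 0.405). On both of these probes the array numbered 3 was the highest of its group, in control and with PTH alike. ILMN_2710253 gave 8.55, 8.55 and 8.75 in control and 8.90, 8.65 and 8.45 with PTH, with PTH replicate 1 the highest and a log2 fold change of 0.05 (SE 0.15, 95% interval -0.30 to 0.41, limma adjusted p 0.914). The 3 probes thus did not share a direction, and the Cyr61 intervals are wide enough to hold a 1.5-fold fall for 2 of them.

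Wisp2, a CCN protein that lacks the C-terminal domain of its relatives and was found as a Wnt-induced secreted protein, had 1 probe (ILMN_2486906). It read 10.06, 10.13 and 10.00 in control (mean 10.06 ± 0.06 SD, n = 3) and 10.41, 10.36 and 10.40 with PTH (mean 10.39 ± 0.03 SD, n = 3). All 3 PTH arrays lay above all 3 control arrays, by a log2 fold change of 0.33 (SE 0.11, 95% interval 0.06 to 0.59), and the limma p was 0.0218 unadjusted and 0.238 adjusted. Because the tubes hold mixed RNA, more cells that express a gene and more of its RNA in each cell cannot be told apart, here or for any other member.

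Wisp1, an osteoblast-expressed CCN protein, was measured by 2 probes that did not move together. ILMN_2492264 read 11.14, 11.21 and 11.08 in control and 11.00, 10.85 and 11.05 with PTH. The 3 PTH arrays were all below control, with a log2 fold change of -0.18 (SE 0.12, 95% interval -0.46 to 0.11, limma adjusted p 0.578). The dimmer ILMN_2453775 read 7.59, 7.70 and 7.34 in control and 7.47, 7.81 and 7.64 with PTH, where the groups overlapped and the log2 fold change was 0.09 (SE 0.15, 95% interval -0.26 to 0.45, limma adjusted p 0.835). Nov, a CCN protein known as a BMP antagonist in bone, was not above background on any array with either of its probes, whose values lay between 4.37 and 4.85 (ILMN_1231797) and between 4.32 and 4.52 (ILMN_1259573). It was not tested, and no fold is given.

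**Figure D2:**
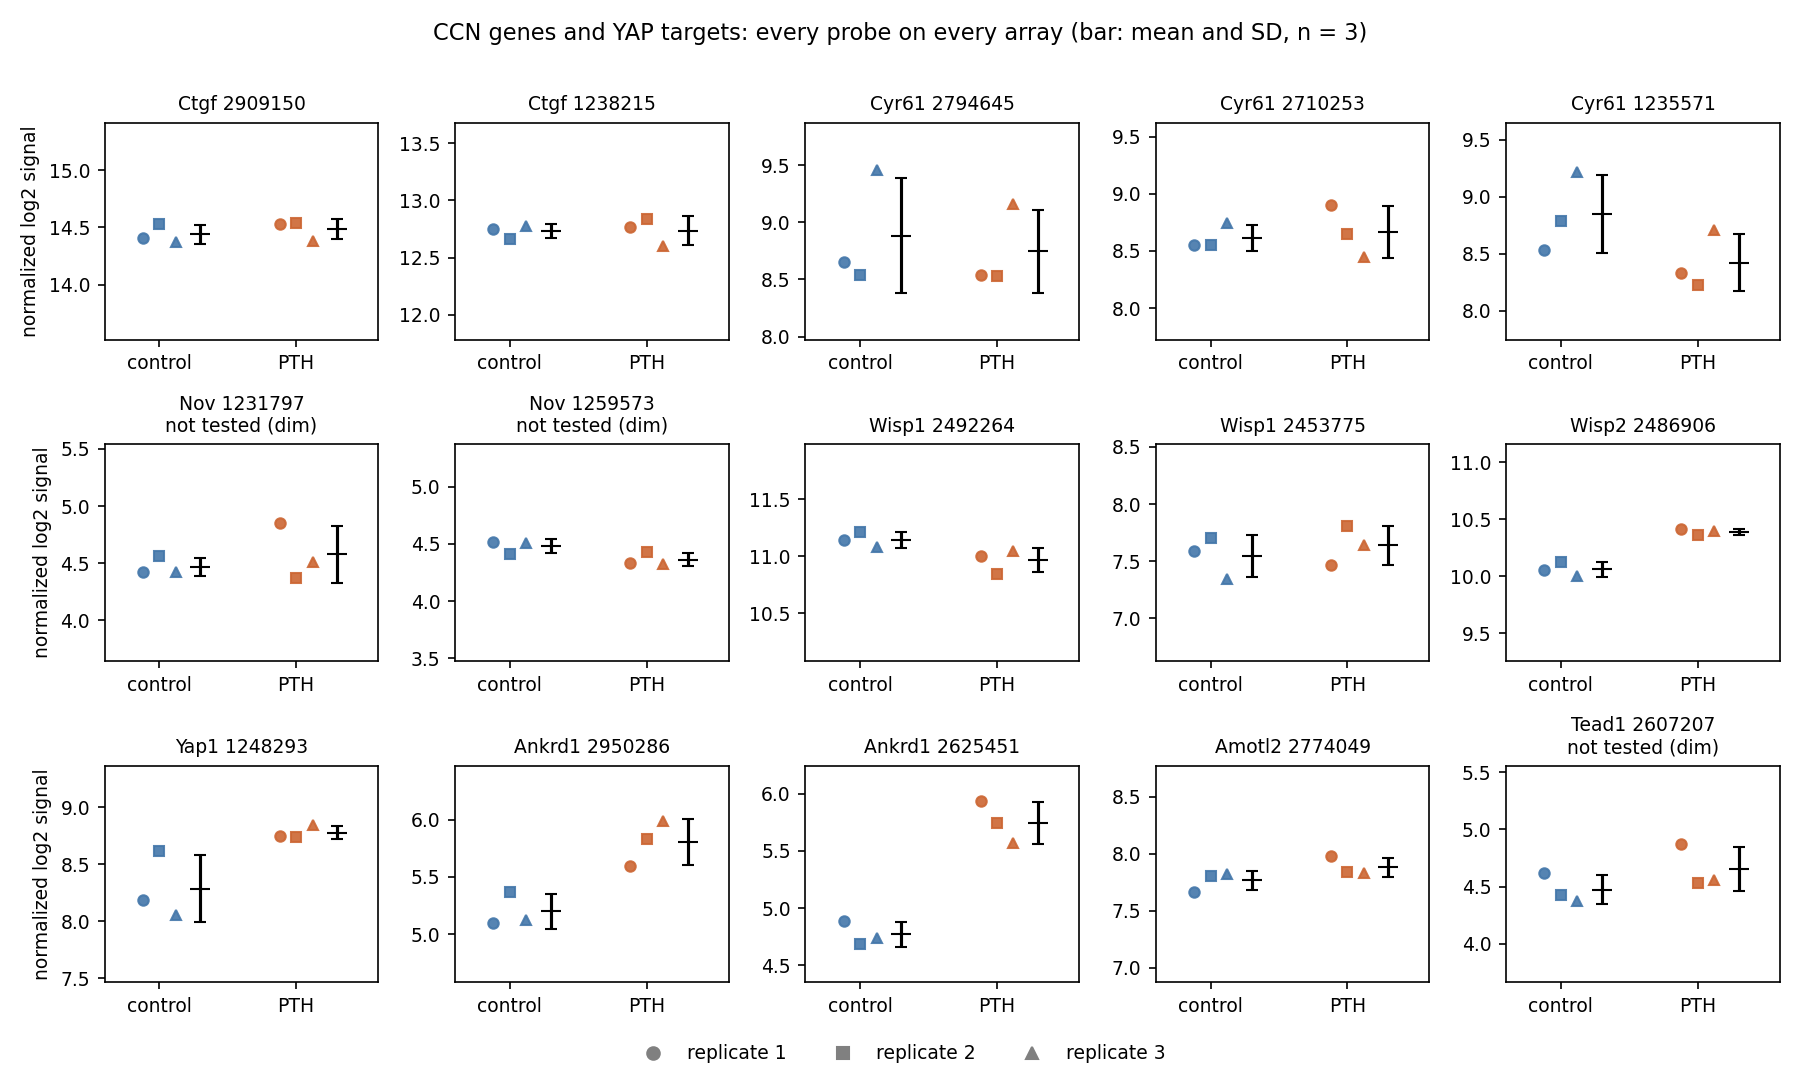
Normalized log2 signal (y axis, a window of the same height in each panel) of each of the 15 member probes on each of the 3 control arrays (blue) and 3 PTH arrays (orange), with marker shape for the replicate number and bars for mean and SD. Wisp2, Yap1, Amotl2 and both Ankrd1 probes have all PTH arrays above all control arrays, the Ctgf and Cyr61 probes overlap, and the probes of Nov and Tead1 were not tested.

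Of the co-factors, Yap1 (ILMN_1248293) read 8.18, 8.62 and 8.05 in control (mean 8.28 ± 0.29 SD, n = 3) and 8.75, 8.74 and 8.84 with PTH (mean 8.78 ± 0.06 SD, n = 3). All PTH arrays lay above control, with control replicate 2 the nearest to them. The log2 fold change was 0.49 (SE 0.17, 95% interval 0.11 to 0.88), with a limma p of 0.0187 unadjusted and 0.223 adjusted. Tead1, the DNA-binding partner, was not above background on any array (ILMN_2607207, 4.38 to 4.62 in control and 4.53 to 4.88 with PTH), and it was not tested.

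Wwtr1 itself was not analysed under its own symbol. RefSeq lists 2310058J06Rik as an older name of it, and 3 probes carry that name. ILMN_1219016 read 9.76, 9.36 and 9.67 in control and 9.82, 9.42 and 9.78 with PTH, with a difference of 0.07 on the log2 scale (SE 0.17, limma adjusted p 0.888). The other probes went in opposite directions, at 0.34 (ILMN_2732998, SE 0.17, limma adjusted p 0.408) and -0.35 (ILMN_2732997, SE 0.25, limma adjusted p 0.594), and the groups overlapped on each of the 3. These probes fall outside the symbol rule and are not counted with the members.

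Of the target genes, Ankrd1 differed most. Ankrd1 encodes a cardiac and skeletal muscle ankyrin repeat protein that acts in the sarcomere and the nucleus and is induced by stretch and by YAP. Its brightest probe (ILMN_2950286) read 5.10, 5.37 and 5.13 in control and 5.59, 5.83 and 5.99 with PTH, and it was above background on 2 control arrays and 3 PTH arrays. All PTH arrays lay above control, by a log2 fold change of 0.61 (SE 0.15, 95% interval 0.26 to 0.96), with a limma p of 0.00404 unadjusted and 0.113 adjusted. The second probe (ILMN_2625451) read 4.89, 4.68 and 4.74 in control (mean 4.77 ± 0.11 SD, n = 3) and 5.93, 5.75 and 5.57 with PTH (mean 5.75 ± 0.18 SD, n = 3). It was above background on 0 control arrays and on all 3 PTH arrays, so that control has only a bound there. The bound is the dimmest signal that still counted as above background on the control arrays. On this scale the PTH mean was 1.62-fold above it, a value that carries no spread and holds for this normalization only.

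That second probe was the only 1 of the 12 tested member probes called (limma adjusted p 0.0197), against 1.61% of all probes tested, and since it passed the filter on low signals only through the PTH arrays, a difference was built into its entry to the test. The fitted log2 fold change was 0.98 (SE 0.14), fell to 0.51 with an offset of 50 in the background correction and to 0.32 without background correction. In both of these it stayed under 1.5-fold, so the call was lost. It was also lost when any array but PTH replicate 3 was left out (limma adjusted p 0.0677 to 0.0905, against 0.0447 without that array), and with median scaling, with replicate number as a block and with the methods' t-test. The direction held in each of these. Since Ankrd1 is also a muscle gene, the muscle list was set beside it: 9 of its 13 genes, among them Acta1, Ckm, Myh1, Myh2 and Myh4, were above background on 0 arrays, 2 were tested and 0 called, and the summed linear level ran from 372 to 380 in control and from 334 to 354 with PTH, sums that are mostly signal near background. The part of muscle RNA in the Ankrd1 values was not tested.

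Amotl2, an angiomotin-like protein that binds YAP at cell junctions and is itself a YAP target, differed little for its spread. ILMN_2774049 read 7.66, 7.81 and 7.82 in control and 7.98, 7.84 and 7.83 with PTH. All PTH arrays lay above control, only just for PTH replicates 2 and 3, and the log2 fold change was 0.12 (SE 0.12, 95% interval -0.17 to 0.40, limma adjusted p 0.730). Over the members tested, counted by the brightest probe, Wisp2, Yap1, Ankrd1 and Amotl2 had all PTH arrays above control, which 11.1% of all genes tested had. Wisp1 had all below, which 10.8% of all genes had, and Ctgf and Cyr61 overlapped. Set among the 11979 genes, the log2 fold change of Ankrd1 was above that of 97.7% of genes, that of Yap1 above 95.8%, that of Wisp2 above 89.5%, that of Amotl2 above 67.9%, that of Ctgf above 56.9%, that of Cyr61 above 28% and that of Wisp1 above 23.4%. The place of Ankrd1 in this order depends on the background correction. With an offset of 50 its brightest probe had a log2 fold change of 0.34, beside 0.45 for Yap1 and 0.32 for Wisp2. Without background correction the values were 0.20 for Ankrd1, 0.39 for Yap1 and 0.30 for Wisp2. An exact permutation test of 3 against 3 arrays reaches p = 0.1 at the lowest, so none was used to call a member.

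**Figure D3:**
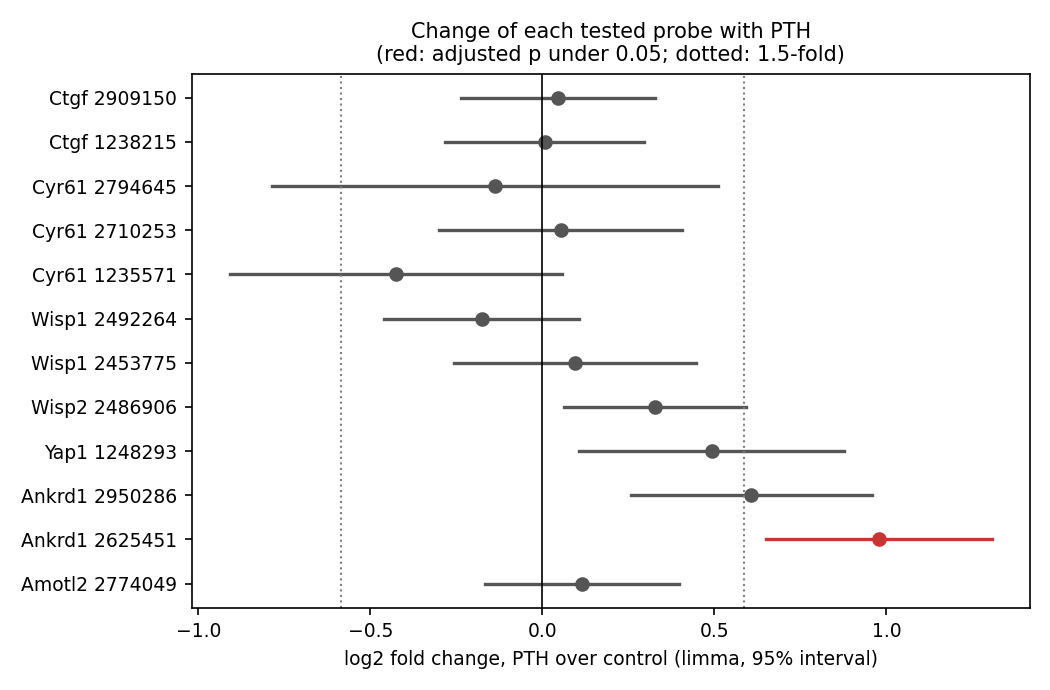
Log2 fold change of PTH over control (x axis) with its 95% interval from limma for the 12 tested member probes, with the 1.5-fold change dotted in each direction. The probe of Ankrd1 in red (0.98) is the called probe, and the intervals of Wisp2, Yap1 and both Ankrd1 probes leave out 0 while those of Ctgf, Cyr61, Wisp1 and Amotl2 hold it.

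The genes whose arrays ran most like Ankrd1 (ILMN_2950286), by the root mean square difference of normalized log2 values centred on each gene's own mean over the 6 arrays, were Slco4a1 (0.0853), Zxda (0.0866), 2210418O10Rik (0.0912) and Slc6a12 (0.0926). Each had all PTH arrays above control. That separation and the size of their changes follow largely from the choice, which was made on the same 6 arrays. Their log2 fold changes were 0.70, 0.69, 0.56 and 0.72, with limma adjusted p from 0.0581 to 0.0928, and 0 of the 4 were called.

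The rest of the pathway was described by 3 lists. Upstream, 27 of 34 Hippo kinases, scaffolds and junction genes were tested and 0 were called: 17 had a higher and 10 a lower mean with PTH, 5 had an unadjusted p under 0.05, and the median log2 fold change was 0.06 against 0.01 over all genes tested. The core kinase gene Lats1 and the scaffold gene Nf2 were too dim to test. Among the largest differences of genes above background on all arrays was that of the tight-junction scaffold Tjp1, which read 7.79, 7.86 and 7.85 in control and 8.23, 8.26 and 8.50 with PTH. All PTH arrays were above control, by a log2 fold change of 0.50 (SE 0.13) that did not pass (limma adjusted p 0.123). The 2 brightest genes, the 14-3-3 protein Ywhaz, which binds phosphorylated YAP, and Frmd6, a relative of Nf2, had log2 fold changes of 0.06 and 0.18 with overlapping groups.

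Of 14 TEAD factors and co-factors 8 were tested, with a median log2 fold change of -0.02, and 1 was called. This was Smad3, the receptor-activated transducer of TGF-β, with which YAP and TAZ share target promoters. Smad3 read 9.35, 9.46 and 9.59 in control and 10.14, 10.22 and 10.05 with PTH, a rise of 0.67 on the log2 scale (SE 0.13, limma adjusted p 0.0490). All PTH arrays were above control, while the other Smad3 probe tested (ILMN_2938893) differed by 0.31 (SE 0.22, limma adjusted p 0.594). The Smad3 call was lost when any 1 array was left out, with median scaling, with no detection filter, with the block and with the methods' t-test. Its partner Smad4, the brightest gene of the list, had a log2 fold change of -0.04 and the AP-1 subunit Jun, the next largest difference, of 0.33 (limma adjusted p 0.454), both with overlapping groups. Tead2 was the TEAD gene that could be tested, at 8.10, 7.89 and 8.04 in control and 7.88, 7.91 and 8.24 with PTH, with a log2 fold change of 0.00 (SE 0.15). Tead4 was above background on 0 arrays and Tead3 on 1.

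Beside the members, 25 genes were listed as readouts of YAP and TAZ, of which Lats2 and Ptpn14 are also on the Hippo list. Of the 25 readouts 19 were tested: 5 had a higher and 14 a lower mean with PTH. The median log2 fold change was -0.06, and 1 readout was called, in the lower direction. This was Ccdc80, a secreted matrix protein listed as 2610001E17Rik, which read 9.87, 9.84 and 9.87 in control and 8.24, 8.39 and 8.80 with PTH. All PTH arrays lay below control, and Ccdc80 fell by 1.38 on the log2 scale (SE 0.16, limma adjusted p 0.00916). The call was lost without control replicate 1, without PTH replicate 2 and with the methods' t-test. Fjx1, a secreted Golgi kinase homologue, read 6.66, 6.76 and 6.78 in control and 7.45, 7.37 and 7.17 with PTH, with a log2 fold change of 0.60 (SE 0.13) that did not pass (limma adjusted p 0.0742). The brightest readouts, the receptor kinase Axl and the membrane repair protein Myof, had log2 fold changes of -0.03 and -0.13 with overlapping groups, and the classical readouts F3 and Areg were above background on 0 arrays.

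**Figure D4:**
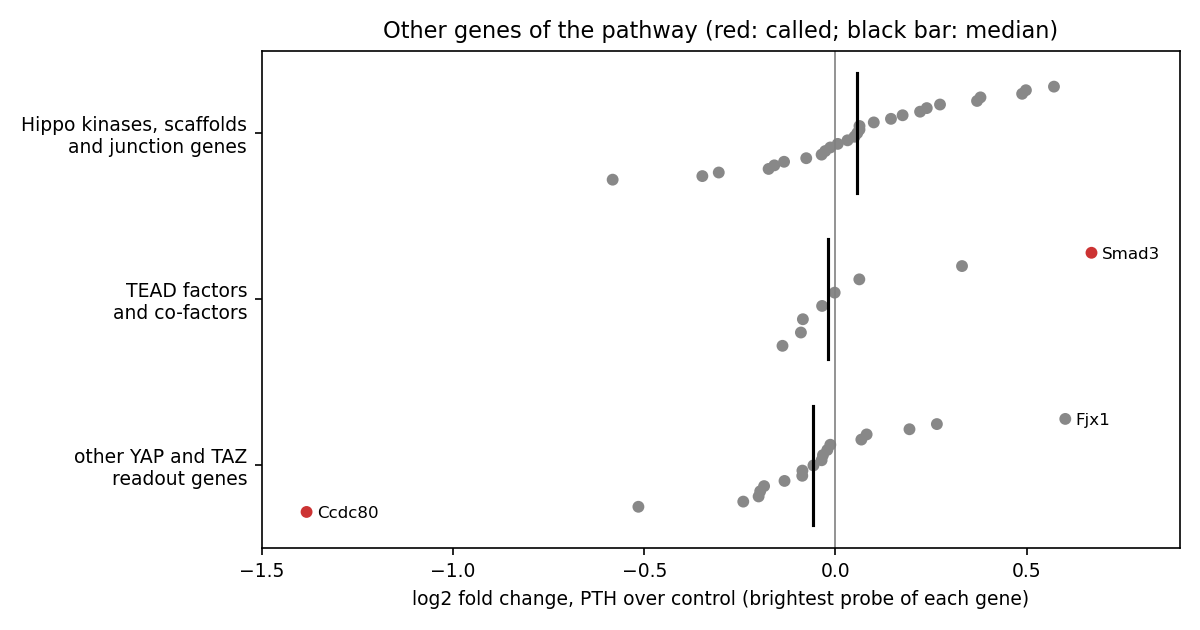
Log2 fold change of PTH over control (x axis) of the brightest tested probe of each gene in the 3 pathway lists, with 27, 8 and 19 genes, spread vertically in order of value. Red points are called (Smad3 at 0.67, Ccdc80 at -1.38), black bars are the medians (0.06, -0.02 and -0.06), and all grey points lie between the 2 red ones.

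The TEAD core was in the promoter window of 7 of 25 Hippo genes with a window (28%), 4 of 9 TEAD factors and co-factors (44.4%) and 5 of 17 readouts (29.4%), where 14.4% of all 27025 genes with a window held it. The readouts were listed as YAP and TAZ targets, so their share is not independent of that choice. Neither Smad3 nor Ccdc80 was among the genes with the core, but a gene without a window could not be searched. Whether Smad3 and Ccdc80 had a window is not reported here. Ptpn14 is counted in both the Hippo genes and the readouts.

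Markers of other cell types moved with the groups, and their part in the member values was not tested. The fibroblast and tendon list, whose cells also express Ctgf and Wisp2, had 2 of 4 tested genes called higher with PTH, Dcn (log2 fold change 0.83, SE 0.12, limma adjusted p 0.0181) and Col3a1 (0.92, SE 0.14, limma adjusted p 0.0211), and its summed linear level ran from 3083 to 3536 in control and from 4388 to 5116 with PTH. The other genes tested, Fmod and Scx, had log2 fold changes of -0.87 (limma adjusted p 0.110, all PTH arrays below control) and -0.13. Dpt and Thbs4 of that list were above background on 0 arrays. Osteoclast markers were called higher for 3 of 5 tested genes (Acp5, Mmp9 and Oscar), with sums of 11954 to 13432 in control and 16193 to 20706 with PTH, while Atp6v0d2, Calcr and Ocstamp were above background on 0 arrays. Called lower were 1 of 6 osteocyte markers tested (Mepe), 2 of 6 osteoblast markers (Ibsp and Sp7), 1 of 5 cartilage markers (Acan), 2 of 2 red cell markers and 5 of 8 neutrophil markers. Of the genes tested in these lists, 1 of 6 osteocyte markers (Pdpn, log2 fold change 0.70, limma adjusted p 0.0560), 1 of 6 osteoblast markers (Col1a2, 0.01) and 2 of 5 cartilage markers (Sox9, 0.32, and Comp, 0.11) had a higher mean with PTH, and 0 of the red cell and neutrophil markers did. Acan was above background on 3 control arrays and 0 PTH arrays. It entered the test only through control, so a difference was built into its call. Of 10 markers of endothelium, a tissue that also expresses Cyr61 and Amotl2, 10 were tested and 0 called, with sums of 3175 to 3553 in control and 3182 to 3631 with PTH.

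**Figure D5:**
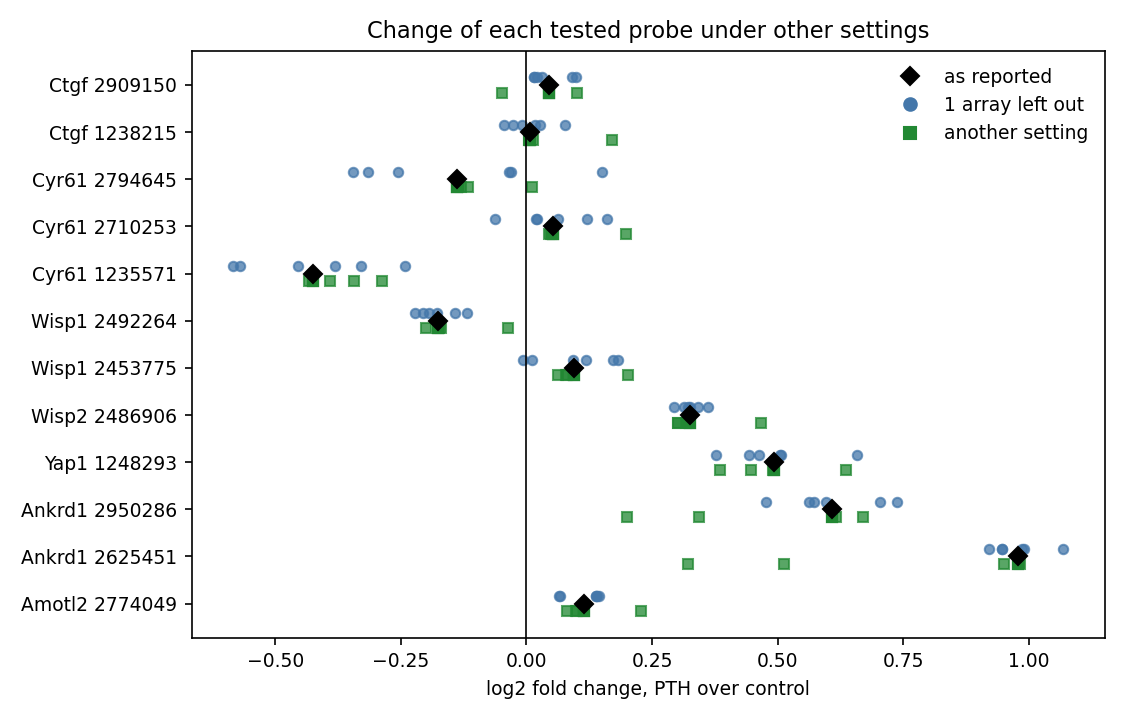
Log2 fold change of PTH over control (x axis) of the 12 tested member probes as reported (black), with 1 array left out (blue) and under other settings of normalization, filter and model (green). Wisp2, Yap1, Amotl2 and both Ankrd1 probes stay above 0 throughout, Wisp1 ILMN_2492264 and Cyr61 ILMN_1235571 stay below it, and the remaining Ctgf, Cyr61 and Wisp1 probes fall on both sides.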

How the data were processed

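RNA from cortical bone tubes, 3 control and 3 PTH preparations, was hybridized to Illumina mouse bead arrays. The authors deposited, for each probe and array, a signal intensity exported from GenomeStudio (version not given in the sources used here) without normalization or background subtraction, and a detection p-value deposited beside it that ranks the probe against 936 negative controls. Both were used as deposited, so low probes are compressed toward the background. Here neqc (limma 3.58.1, R 4.3.3) fitted normexp through the detection p-values, added an offset of 16, quantile normalized and took log2. Probes with detection p under 0.05 on at least 3 of 6 arrays, 16214 in all, were compared with lmFit and eBayes, without covariates. Fold changes of dim probes are shrunk by the offset. The methods' own selection, a GenomeStudio differential score, cannot be rerun from this table. The procedure was tested on simulated data: among 16214 probes, 59% of 100 changes of log2 1 and 94% of 100 of log2 2 were recovered, with 12 false calls. Depth has no counterpart on arrays, and the number of arrays limits the precision.

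The members and the 3 pathway and 9 marker lists were chosen with earlier results of these data known. Every member probe is described. Of each pathway list the called genes are named and, where fewer than 3 were called, the 2 brightest and the 2 largest differences among genes above background on all arrays. The 4 genes most like the member with the largest difference are also named. Genes such as Lats1, Nf2, Tead2, Tead3, Tead4, F3 and Areg were named for their role, and some genes that the rule names are not reported here. Older symbols and promoter windows came from RefSeq tables of GRCm38.p6. The table names no slide, so a slide effect could not be fitted. Alternatives were other background corrections, normalizations, filters, thresholds and probe rules, a block for replicate number, fits on 5 of the arrays (each omitted in turn) and the methods' t-test. After the data had been seen, an unadjusted t-test and a model term for arrays numbered 3 were added.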

Additional observations from a re-analysis of the deposited data

How the results depend on the processing

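Over 20 alternatives, the tested member probes gave 178 values, of which 160 had the direction and side of the threshold reported, 8 had the opposite sign, 10 lost a call and 0 gained one. The opposite signs were log2 fold changes near 0: Cyr61 ILMN_2794645 at 0.010 with median scaling and -0.35 to 0.15 with 1 array left out, Ctgf ILMN_2909150 at -0.048 with cyclic loess, and, with 1 array left out, Ctgf ILMN_1238215 at -0.044 to 0.076, Cyr61 ILMN_2710253 at -0.063 to 0.16 and Wisp1 ILMN_2453775 at -0.0074 to 0.18. The lost calls were all of Ankrd1 ILMN_2625451 (limma adjusted p 0.0171 to 0.0905 over its alternatives), which had an adjusted p of 0.0618 with median scaling, 0.0558 with the block and 0.0890 with the methods' t-test, and stayed called with cyclic loess, no detection filter and the term for arrays numbered 3. Yap1 reached a limma adjusted p of 0.0450 without background correction, below 1.5-fold. Member genes called numbered 1 (Ankrd1) with each probe counted singly, by the probe with the largest change, and by the unadjusted t-test. Genes called numbered 207 as reported, 104 with median scaling, 44 with the block, 48 to 78 with 1 array left out, 68 with the methods' t-test adjusted, 506 with it unadjusted and 367 at adjusted p under 0.1. Median scaling moved the median log2 fold change of all genes to 0.12 and the share of calls that were higher from 39.6% to 60.6%. Calls in the TEAD list numbered 0 with median scaling, no detection filter, the block, the adjusted t-test and 1 array left out (0 to 0). Calls among the other readouts numbered 2 at detection p under 0.01 on all 6 arrays and at adjusted p under 0.1, 0 with the adjusted t-test and 0 to 1 with 1 array left out. The cause of these changes was not tested. Deviations of same-numbered arrays correlated at 0.067, 0.0636 and 0.273. Between numbers 1 and 2 the correlations were 0.0701 and 0.073, and between number 3 and the others -0.142 to -0.134. The arrays numbered 3 thus shared a deviation, while numbers 1 and 2 were no more alike within a number than across. The replicate numbers were not taken as pairs, and the replicate block called 44 genes and 0 members. With detection p under 0.01 on all 6 arrays Ankrd1 had no value. Signal close to background limits Nov, Tead1 and Ankrd1.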
